A study of Mus musculus with 360 samples.

Results

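WT Cells 2 is a group of 29 single cells from the cochlea of control mice, set here against WT Cells 1, a group of 80 control cells. The cells were taken from the clusters numbered 3 and 0 in the authors' deposited annotation, out of 360 cells in the series, and only cells of control animals were kept. The names say nothing of the cell type, and the question addressed is which epithelial type of the cochlea each group resembles. The control mice carried Fbxo2CreERT2, in which the Fbxo2 locus drives a Cre recombinase that tamoxifen switches on, together with a Rosa26-tdTomato reporter of Cre activity. They received tamoxifen at 3 weeks of age, and at 5 weeks the cochlea was dissociated with papain. Single cells were sorted by their tdTomato and EpCAM fluorescence into 96-well plates and made into libraries with SMART-MATQ, in which priming is not limited to transcript ends and each molecule is counted once by its unique molecular identifier (UMI). Both groups therefore share genotype, treatment, tissue and sort gate, and the sort keeps only epithelial cells in which the Fbxo2 driver was active.

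The cochlear duct is lined by an epithelium of sensory hair cells, the supporting cells around them and several non-sensory types on both sides. On the inner side, interdental cells of the spiral limbus secrete and anchor the tectorial membrane, and inner sulcus cells lie between the limbus and the organ of Corti. On the outer side, Hensen and Claudius cells lead to the outer sulcus, whose root cells send processes into the spiral ligament, and the marginal cells of the stria vascularis secrete potassium into the endolymph.

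The cells of WT Cells 2 held 809230 UMIs in all, with 10551 to 47465 per cell (median 26732), and the cells of WT Cells 1 held 1697070, with 8192 to 41653 per cell (median 19822). A median of 4194 genes was detected per cell in WT Cells 2 and of 3564 in WT Cells 1. After each cell was thinned to 8000 UMIs these medians were 2756 and 2652. The sample names carry the letters A and B, read here as plates: WT Cells 2 had 18 cells of letter A and 11 of letter B, and WT Cells 1 had 28 and 52. The labels name no animals, so each group is 1 sample, no test was made, and values are given with intervals that cover counting error only. A level is in CPM, the UMIs of a gene per 1e6 UMIs summed over a group, with the exact 95% Poisson interval, and a ratio of 2 levels has the exact 95% conditional-binomial interval. The clusters were made by the authors from the same counts, so every difference below describes how the groups differ and is no independent evidence that they do.

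The gene of the driver and the gene of the sorted surface protein stood at like levels in both groups. Fbxo2, which encodes a ubiquitin ligase subunit, was at 762 CPM in WT Cells 2 and 768 CPM in WT Cells 1, and had a UMI in all 29 and all 80 cells. Epcam, which encodes the epithelial adhesion molecule used in the sort, was at 179.2 CPM in WT Cells 2 and 187 CPM in WT Cells 1. Markers of cells that the gate should remove were near 0 for some types and not for others. The 8 leukocyte markers summed to 0 UMIs in WT Cells 2 and to 1.77 CPM in WT Cells 1, and the 5 erythroid markers to 0 UMIs in WT Cells 2 and 0.589 CPM in WT Cells 1. The 9 spiral ganglion neuron markers summed to 11.1 CPM in WT Cells 2 and 20.6 CPM in WT Cells 1. Genes of epithelial types are not part of that set. Of these, Sox2, a transcription factor of supporting cells, had 0 UMIs in both groups, as did Otof and Pvalb of hair cells. The 7 endothelial cell and pericyte markers summed to 16.1 CPM in WT Cells 2 and 2.36 CPM in WT Cells 1, the 12 fibrocyte and fibroblast markers to 907 CPM in WT Cells 2 and 160.9 CPM in WT Cells 1, mostly Lum, and the 11 Schwann and satellite glia markers to 1267 CPM in WT Cells 2 and 1865 CPM in WT Cells 1, mostly Sox10, which the cochlear epithelium also expresses. By counting error a 0 would allow up to 3.71 CPM in WT Cells 2 and up to 1.77 CPM in WT Cells 1, but 6 of the 13 mitochondrially encoded genes, which every cell uses, also had 0 UMIs in both groups. A gene at 0 UMIs in both groups is therefore only listed at 0 here.

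Among the genes higher in WT Cells 2 than in WT Cells 1 were some outer epithelial markers, such as the secreted inhibitor Fst, and genes on no cell type list, such as the ligand Fgf9 and the carbonic anhydrase Car12. Among the genes lower were the tectorial membrane genes Otoa, Ceacam16 and Otog. Of 9586 genes at 10 CPM or more in either group, 676 (7.05%) were at least 2-fold higher in WT Cells 2 in letter A and again in letter B, and 763 (7.96%) were at least 2-fold lower in both letters. These folds are on the log2 scale after 1 CPM was added to each level. A further 429 genes passed 2-fold in opposite directions in the 2 letters, so a ratio from 1 letter alone was often not repeated in the other. The median log2 ratio over all 9586 genes was 0.03.

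**Figure D1:**
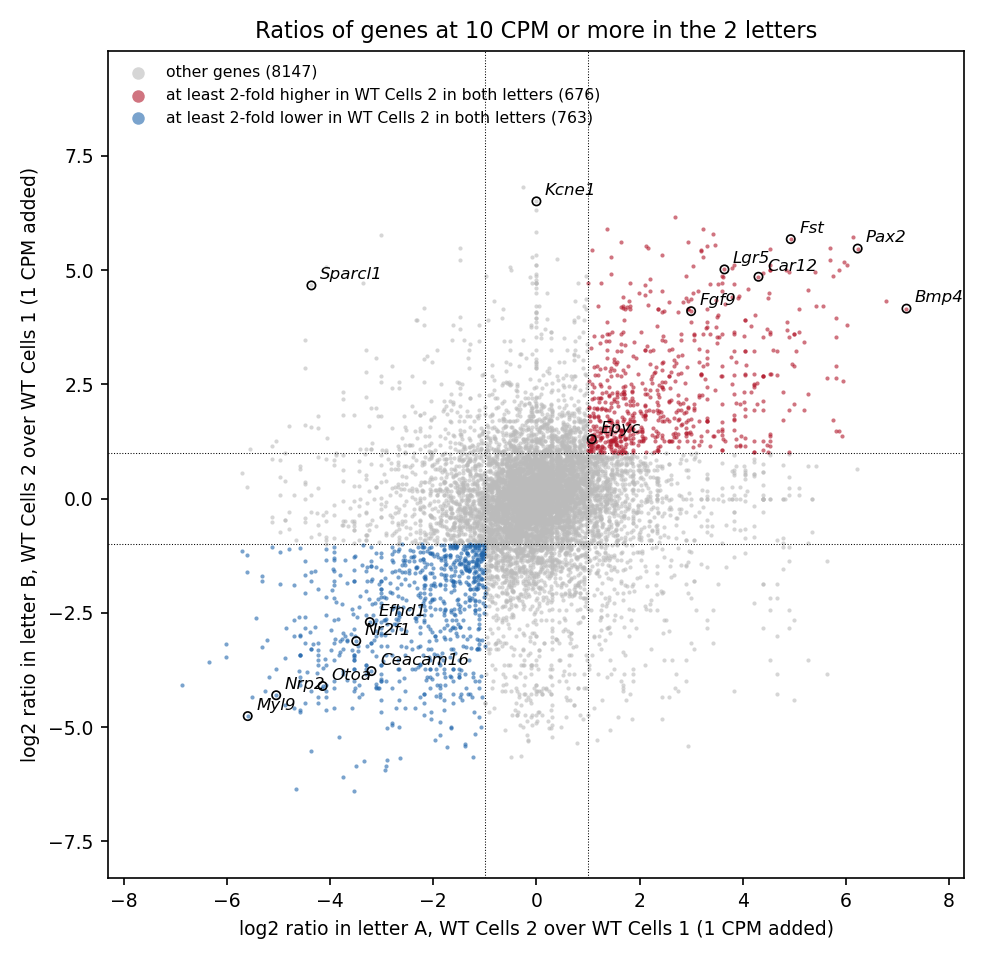
Each point is 1 of the 9586 genes, with its log2 ratio of WT Cells 2 over WT Cells 1 in letter A on the x axis and in letter B on the y axis, and dotted lines at 2-fold. The 676 genes at upper right (red) include Bmp4, Pax2, Fst, Car12, Lgr5 and Fgf9, the 763 at lower left (blue) include Otoa, Ceacam16, Nr2f1 and Myl9, and Sparcl1 and Kcne1 lie high in letter B alone.

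The lists of Claudius and outer sulcus cell markers and of Hensen cell markers had the highest medians in WT Cells 2. Of the 8 Claudius and outer sulcus genes, 6 were at 10 CPM or more, with 4 past 2-fold upward in both letters (Bmp4, Fst, Gata2 and Aqp5) and 0 downward. Of all genes at 10 CPM or more, 7.05% were higher and 7.96% lower by the same rule. The median log2 ratio of the 6 was 3.55, with 2.81 in letter A and 3.56 in letter B. The list summed to 2340 CPM in WT Cells 2 (95% interval 2236 to 2448) and to 1134 CPM in WT Cells 1 (1084 to 1186). Per cell the sum ran over 140 to 4377 CPM in WT Cells 2 (median 2301) and over 158.9 to 3679 CPM in WT Cells 1 (median 1074), so the groups overlapped widely in this sum. Slc26a4, which makes up much of it, did not part the groups, and 2 members, the proton pump subunits Atp6v1b1 and Atp6v0a4, had 0 UMIs in WT Cells 2.

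Fst, whose product follistatin binds activins and bone morphogenetic proteins outside the cell, is on the Claudius and outer sulcus list and on the Hensen cell list. It lies on the minus strand of chromosome 13 (114452290 to 114458951, mm10 coordinates from GENCODE). It was at 559 CPM in WT Cells 2 (508 to 613) and at 13.6 CPM in WT Cells 1 (8.59 to 20.3), 41.2-fold higher (27.1 to 65.7). Single cells ran over 0 to 3255 CPM in WT Cells 2 (median 50.5) and over 0 to 228 CPM in WT Cells 1 (median 0). A UMI of Fst was found in 19 of 29 cells of WT Cells 2 and in 21 of 80 cells of WT Cells 1, and 12 cells of WT Cells 2 lay above the highest cell of WT Cells 1. The gene was high in both letters, at 356 CPM in letter A and 816 CPM in letter B of WT Cells 2, against 10.68 and 14.97 CPM in WT Cells 1.

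Bmp4, a bone morphogenetic protein known from the outer sulcus of the developing mouse cochlea, was found in WT Cells 2 and not in WT Cells 1. Its 71 UMIs gave 87.7 CPM in WT Cells 2 (68.5 to 110.7), against 0 UMIs in WT Cells 1, which makes it at least 49.6-fold higher when WT Cells 1 is set to the limit of 3 counts over the group. Only 7 of the 29 cells held a UMI, 5 of letter A and 2 of letter B, and 1 cell held 53.5% of the 71 UMIs. Gata2, a zinc finger transcription factor, was spread more evenly: 27 of 29 cells in WT Cells 2 and 30 of 80 in WT Cells 1 had a UMI, and the levels were 324 CPM and 48.3 CPM, a ratio of 6.70 (5.21 to 8.70). Aqp5, a water channel of the outer sulcus, was at 32.1 CPM in WT Cells 2 and 0.589 CPM in WT Cells 1, where it had 1 UMI, and was detected in 8 and 1 cells.

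Slc26a4, which encodes the anion exchanger pendrin and marks outer sulcus root and spindle cells, was high in both groups. Its level was 1323 CPM in WT Cells 2 (1245 to 1405) and 1057 CPM in WT Cells 1 (1009 to 1107), a ratio of 1.25 (1.16 to 1.35). Cells ran over 41.8 to 3985 CPM in WT Cells 2 (median 955) and over 109.4 to 3679 CPM in WT Cells 1 (median 1009), and all cells of both groups had a UMI. The log2 ratio was 0.51 in letter A and 0.10 in letter B. The other control clusters held less, with 639 CPM in WT Cells 3 (20 cells) and 135.1 CPM in WT Supp Cells (29 cells). High Slc26a4 was thus common to the 2 groups compared here and does not tell them apart.

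Among the 9 root cell markers, 3 were at least 2-fold higher in WT Cells 2 in both letters (Lgr5, Epyc and Aqp5), 0 were lower, and the median log2 ratio was 0.32, with -0.28 in letter A and 0.80 in letter B. Over all genes 7.05% were higher and 7.96% lower. Lgr5 encodes a receptor for R-spondins, which strengthen Wnt signalling. It was at 956 CPM in WT Cells 2 (890 to 1026) and 44.2 CPM in WT Cells 1 (34.8 to 55.4), 21.6-fold higher (17.1 to 27.8). Single cells of WT Cells 2 ran over 0 to 5165 CPM (median 184) and those of WT Cells 1 over 0 to 2238 CPM (median 0), so that 4 cells of WT Cells 2 lay above the highest cell of WT Cells 1. The level was higher in letter A (1416 CPM in WT Cells 2, 112.2 CPM in WT Cells 1) than in letter B (373 and 10.6 CPM). Epyc, which encodes the small leucine-rich matrix proteoglycan epiphycan, had the largest difference in CPM of the genes that met the naming rule, with 4559 CPM in WT Cells 2 and 2064 CPM in WT Cells 1, a ratio of 2.21 (2.11 to 2.31). The inward rectifier potassium channel Kcnj16, on the list, was lower, with 1382 CPM in WT Cells 2 and 2601 CPM in WT Cells 1. Its log2 ratio of -0.89 in letter A and -0.91 in letter B fell short of 2-fold. Bmp6, on this list too, was lower as well, past 2-fold in letter B alone (levels given below).

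The Hensen cell list had 3 of 4 members at 10 CPM or more, of which 2 (Fst and Nupr1) were at least 2-fold higher in WT Cells 2 in both letters and 0 lower. Of all genes 7.05% were higher and 7.96% lower. The median log2 ratio of the 3 members was 3.97. Nupr1, a stress-responsive chromatin protein, was at 792 CPM in WT Cells 2 (732 to 856) and 49.5 CPM in WT Cells 1 (39.5 to 61.3), a ratio of 16.003 (12.7 to 20.3). It was seen in 26 of 29 cells in WT Cells 2 and 35 of 80 in WT Cells 1, and 13 cells of WT Cells 2 lay above the highest cell of WT Cells 1. Oc90, the remaining Hensen member, had 0 UMIs in both groups.

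**Figure D2:**
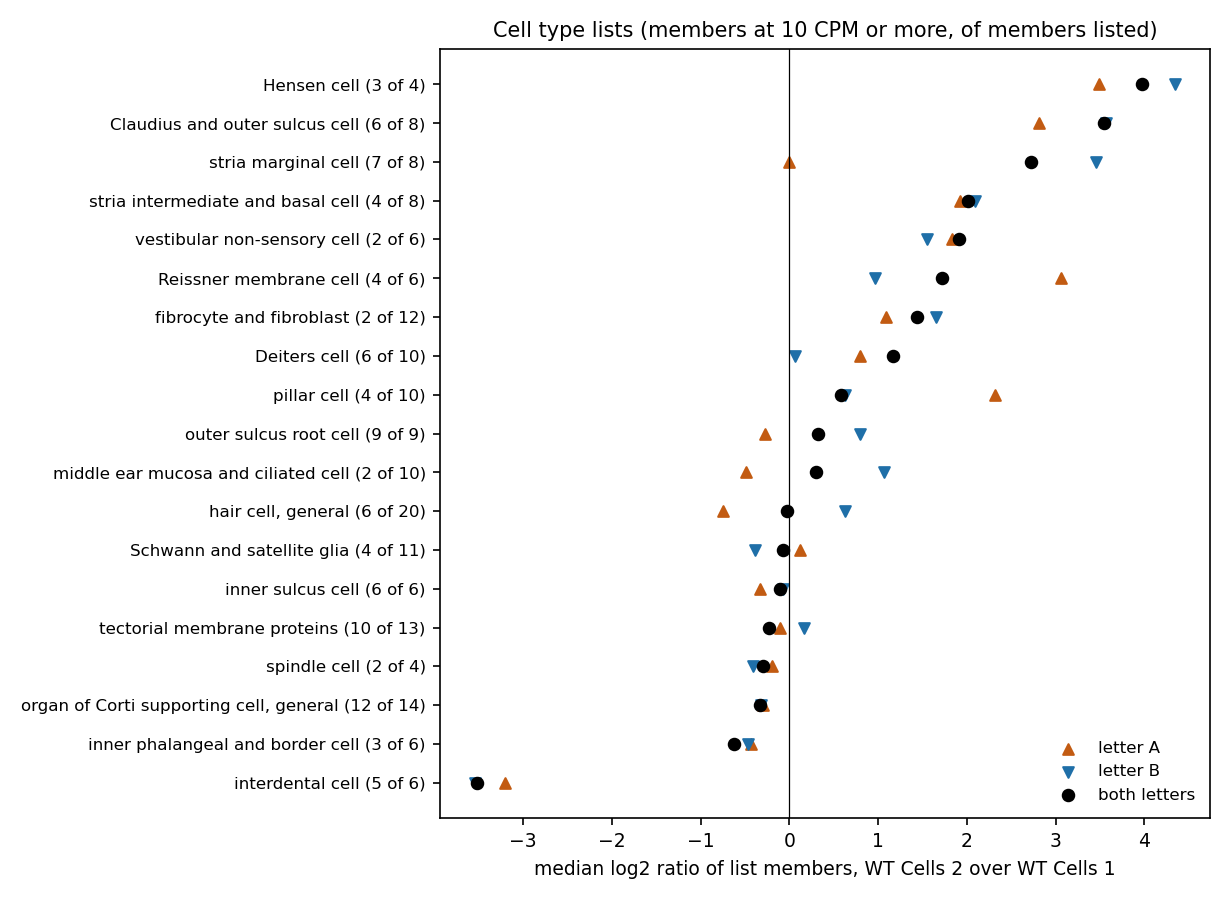
Median log2 ratio of WT Cells 2 over WT Cells 1 (x axis) for each cell type list with at least 2 members at 10 CPM or more, in letter A, letter B and both together, with the members counted and listed in parentheses. Over both letters together the Hensen list (3.97) and the Claudius and outer sulcus list (3.55) lie highest and the interdental list (-3.52) lowest, while the stria marginal list is at 0.00 in letter A and 3.45 in letter B.

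On these markers WT Cells 2 can be called Claudius and outer sulcus cell-like, while the Hensen list had the higher median on 2 higher markers. The name rests on 4 markers, of which Fst is among the 10 largest ratios of the genes that met the naming rule, and which were detected in 27 (Gata2), 19 (Fst), 8 (Aqp5) and 7 (Bmp4) of the 29 cells. The Hensen list shares Fst and Aqp4 with it, so the lists cannot tell Hensen from Claudius cells here. Other lists had members higher, lower or both, and their counts stand beside 7.05% higher and 7.96% lower of all genes. The 14 general markers of supporting cells of the organ of Corti had 12 members at 10 CPM or more, with 1 at least 2-fold higher (Isl1) and 1 lower (Cldn9). The median log2 ratio there was -0.33. The inner sulcus list had 1 higher (Epyc) and 1 lower (Otog) of 6. Some lists had higher members and 0 lower. These were stria intermediate and basal (2 of 4, Cldn11 and Tspan1), Reissner membrane (1 of 4, Kcnk1) and vestibular non-sensory (1 of 2, Smoc2). Their median log2 ratios were 2.02, 1.72 and 1.91. The pillar cell list had 1 of 4 higher (S100b), the Deiters list 1 higher (Lgr5) and 1 lower (Cntn1) of 6, and the inner phalangeal and border cell list 1 of 3 higher (Matn4), of which 4 cells of each group held a UMI.

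The interdental list split the groups from the other side. Of its 5 members at 10 CPM or more, 3 were at least 2-fold lower in WT Cells 2 in both letters (Otoa, Ceacam16 and Otog) and 2 higher (Otogl and Lum), and Tecta, the remaining one, had 0 UMIs in both groups. Over all genes 7.96% were lower and 7.05% higher. Otoa encodes otoancorin, which attaches the tectorial membrane to the spiral limbus. It was at 75.4 CPM in WT Cells 2 (57.7 to 96.8) and 1346 CPM in WT Cells 1 (1291 to 1402), 17.9-fold lower in WT Cells 2 (13.8 to 23.4). The cells of WT Cells 2 ran over 0 to 184 CPM (median 72.5) and those of WT Cells 1 over 187 to 3619 CPM (median 1229), so that no cell of one group overlapped with the other. The log2 ratio was -4.15 in letter A and -4.10 in letter B.

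Ceacam16, a secreted adhesion protein of the tectorial membrane, was at 122.3 CPM in WT Cells 2 (99.4 to 148.9) and 1417 CPM in WT Cells 1 (1360 to 1474), 11.6-fold lower (9.47 to 14.3). Otog, which encodes the tectorial membrane protein otogelin, was at 80.3 CPM in WT Cells 2 (61.99 to 102.4) and 1042 CPM in WT Cells 1 (994 to 1092), 12.98-fold lower (10.1 to 16.9). Summed over the 3 genes, cells ran over 0 to 802 CPM in WT Cells 2 (median 232) and over 373 to 10647 CPM in WT Cells 1 (median 3699), and 79 of the 80 cells of WT Cells 1 lay above the highest cell of WT Cells 2. These 3 are the lower members of the interdental list only. The whole list, which includes Otogl and Lum, summed to 1550 CPM in WT Cells 2 and 3985 CPM in WT Cells 1. In that sum 34 cells of WT Cells 1 lay above the highest cell of WT Cells 2. Low levels of Otoa, Ceacam16 and Otog were found in most cells of WT Cells 2: a UMI of Otoa in 25 of 29, of Ceacam16 in 27 and of Otog in 23. After thinning to 8000 UMIs the shares with a UMI of Otoa were 34.5% in WT Cells 2 and 98.8% in WT Cells 1.

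**Figure D3:**
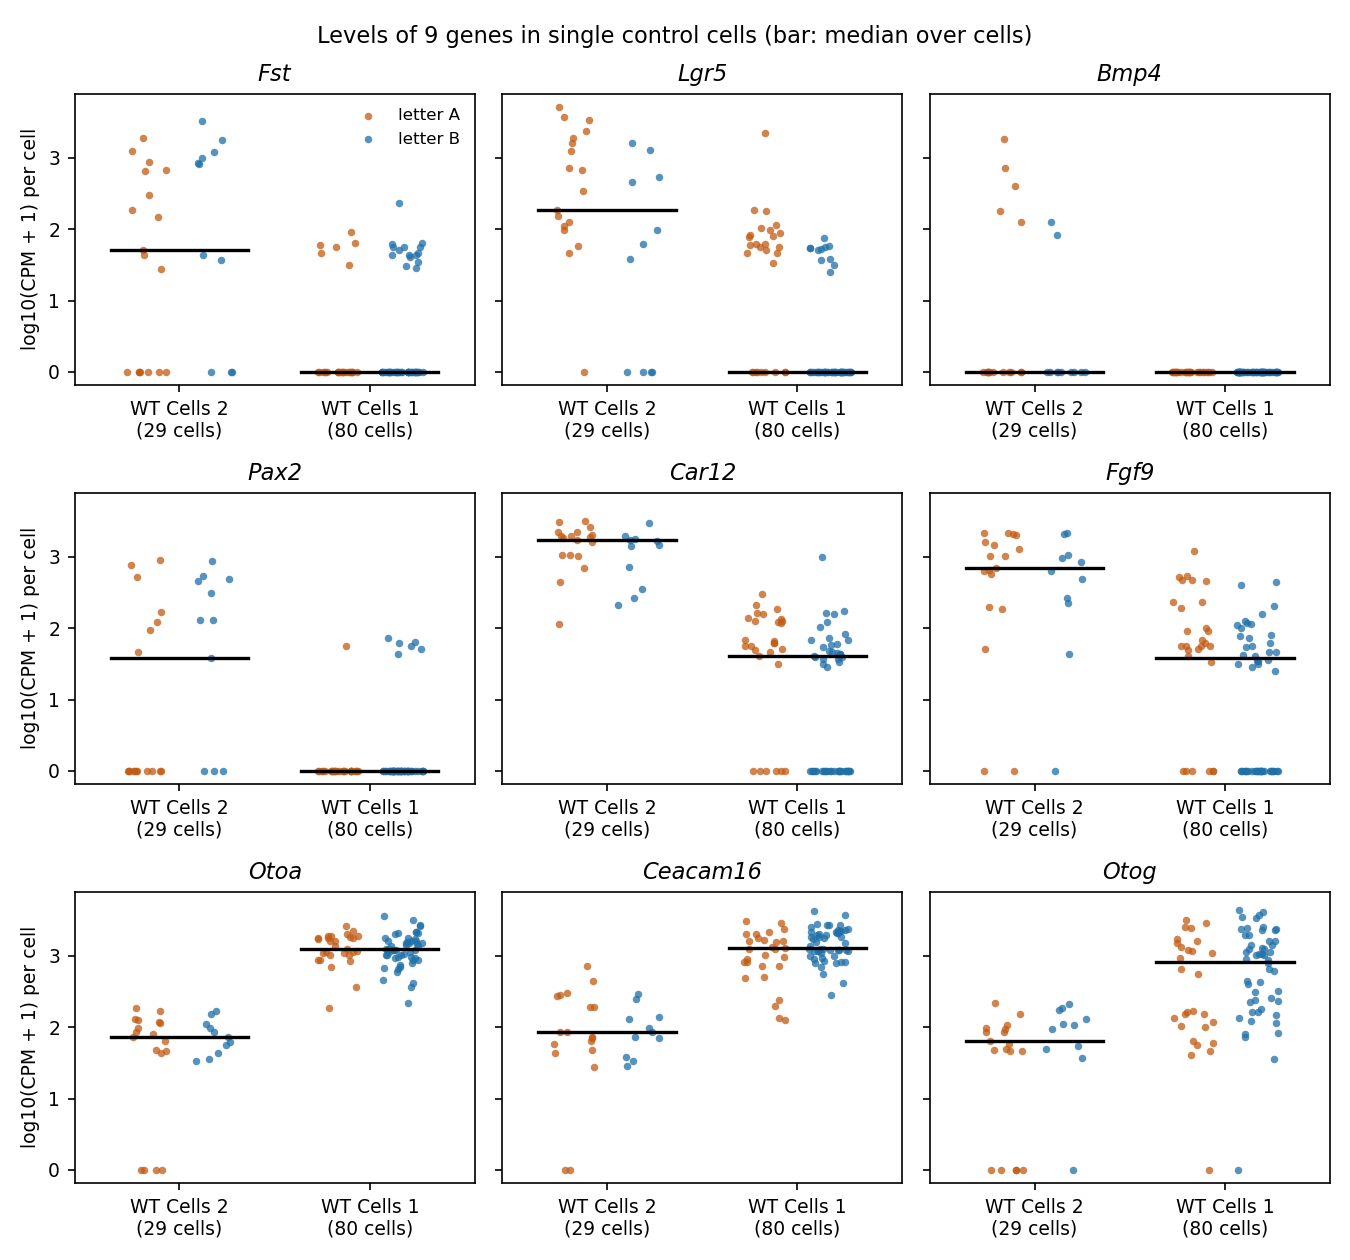
Level of 9 genes in each cell, as log10(CPM + 1), in WT Cells 2 (left) and WT Cells 1 (right), coloured by letter, with the median as a bar. Otoa does not overlap between the groups (0 to 184 CPM in WT Cells 2, 187 to 3619 CPM in WT Cells 1), Car12 and Fgf9 are high in most cells of WT Cells 2, and Fst, Lgr5, Pax2 and Bmp4 are high in some cells of WT Cells 2 and at 0 in others.

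Otogl and Lum, on the same list, went the other way. Otogl, an otogelin-like protein, was at 390.5 CPM in WT Cells 2 (349 to 436) and 45.4 CPM in WT Cells 1 (35.8 to 56.7), a ratio of 8.61 (6.69 to 11.2). The matrix proteoglycan gene Lum was at 881 CPM in WT Cells 2 (818 to 948) and 134.9 CPM in WT Cells 1 (118.03 to 153.6), a ratio of 6.53 (5.62 to 7.61). Lum is also a fibrocyte marker, and 9 of the 12 fibrocyte and fibroblast markers had 0 UMIs in WT Cells 2, against 8 in WT Cells 1. Of 13 tectorial membrane genes, 10 were at 10 CPM or more, with 4 at least 2-fold higher in WT Cells 2 in both letters and 3 lower. The higher ones were Otogl and the collagens Col2a1, Col9a1 and Col9a3, and the lower ones Otoa, Ceacam16 and Otog. Over all genes 7.05% were higher and 7.96% lower. These 13 genes summed to 1126 CPM in WT Cells 2 and 4185 CPM in WT Cells 1. Col2a1 was at 44.5 CPM from 7 cells of WT Cells 2 and had 0 UMIs in WT Cells 1. With 3 of the interdental list higher and 2 lower than in WT Cells 2, WT Cells 1 is given no cell type name. None of Otoa, Ceacam16 and Otog was among its 10 leading genes by ratio.

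Promoters are shown for 4 genes that stand for the 2 sides of the difference, Car12 and Bmp4 (higher in WT Cells 2) and Otoa and Otog (lower). They are the 250 bases before the gene start in RefSeq (GRCm38.p6, the assembly of mm10), read 5′ to 3′ on the gene's strand, at chr9:66713436-66713685 (plus strand), chr14:46390670-46390919 (minus strand), chr7:121083174-121083423 (plus strand) and chr7:46240737-46240986 (plus strand), in this order. The start that RefSeq gives for Otoa lies inside the span that GENCODE gives for the gene. Capitals mark every match, on either strand, to 6 motifs, whose matches do not overlap here: the binding letters of zinc finger factors of the Gata family (AGATAA), the core site of nuclear receptors (AGGTCA), the homeodomain site (TAATTA), the box of core promoters named after its letters (TATAAA), the CCAAT box, searched as its own name reads, and the GC box (GGGCGG).
Car12: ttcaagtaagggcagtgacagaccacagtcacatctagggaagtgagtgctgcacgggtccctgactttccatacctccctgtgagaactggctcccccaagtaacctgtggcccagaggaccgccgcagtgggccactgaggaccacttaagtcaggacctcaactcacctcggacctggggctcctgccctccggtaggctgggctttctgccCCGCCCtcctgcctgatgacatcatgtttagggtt
Bmp4: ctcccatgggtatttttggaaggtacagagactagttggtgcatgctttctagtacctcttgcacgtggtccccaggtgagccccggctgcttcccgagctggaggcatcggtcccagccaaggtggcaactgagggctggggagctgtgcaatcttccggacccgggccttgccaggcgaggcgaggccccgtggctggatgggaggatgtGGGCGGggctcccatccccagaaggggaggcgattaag
Otoa: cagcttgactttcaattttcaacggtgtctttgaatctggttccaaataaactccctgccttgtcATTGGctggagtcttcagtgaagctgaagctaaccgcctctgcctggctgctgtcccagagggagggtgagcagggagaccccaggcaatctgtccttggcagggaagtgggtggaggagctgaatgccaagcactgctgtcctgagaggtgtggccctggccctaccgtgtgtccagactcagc
Otog: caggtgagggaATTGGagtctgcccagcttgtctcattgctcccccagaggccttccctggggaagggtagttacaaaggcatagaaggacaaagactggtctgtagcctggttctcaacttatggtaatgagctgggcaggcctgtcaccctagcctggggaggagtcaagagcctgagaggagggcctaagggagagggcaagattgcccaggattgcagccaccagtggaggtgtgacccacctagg
The promoters of Car12 and Bmp4 each held 1 GC box, 35 and 38 bases before the start, and those of Otoa and Otog each held 1 CCAAT box, 185 and 239 bases before it. In Car12, Otoa and Otog the match is on the other strand, so the capitals show the motif's reverse complement. Of all 32851 promoters in the table, 32.7% held a GC box and 33.8% a CCAAT box within the same length, and the 4 motifs with no match in the promoters shown were found in 9.99% (Gata family), 14.02% (nuclear receptors), 4.84% (homeodomain) and 12.4% (the core promoter box). A GC box was found in 52.98% of the 672 promoters of genes at least 2-fold higher in WT Cells 2, in 55.3% of the 732 promoters of genes at least 2-fold lower and in 59.3% of the 9446 promoters of all genes at 10 CPM or more, and a CCAAT box in 32.4%, 33.9% and 34.4%. These shares differ little between the 2 directions, and a match is a description of letters only.

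Ranked by ratio after 1 CPM was added, the 15 genes that led WT Cells 2 were Pax2, Prelp, Fst, Scamp5, Apoa4, Fgfr2, Atp2b4, Lbh, Car12, Vdr, Gfra1, Lgr5, Frzb, Tbc1d9 and Lgals1, among 236 that met every condition of the naming rule. Their ratios ran from 98.6 (Scamp5) to 19.1 (Lgals1) before the added CPM. All 15 were higher than in WT Cells 1 by the rule. They were also higher than in WT Cells 3 and WT Supp Cells, with no share over all genes given beside this count. Several act at the cell surface or outside the cell: Gfra1 is the co-receptor for the growth factor GDNF, Frzb a secreted Wnt antagonist, Prelp a proteoglycan of basement membranes and Lgals1 a secreted lectin. Vdr, the vitamin D receptor, was at 133.5 CPM in WT Cells 2 (109.5 to 161.1) and 4.71 CPM in WT Cells 1 (2.04 to 9.29), and Atp2b4, a calcium pump of the plasma membrane, at 158.2 CPM in WT Cells 2 and 4.71 CPM in WT Cells 1.

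Car12 was detected in every cell of WT Cells 2. It encodes a membrane-bound carbonic anhydrase and lies on the plus strand of chromosome 9 (66713686 to 66766845). Its level was 1462 CPM in WT Cells 2 (1380 to 1548) and 55.98 CPM in WT Cells 1 (45.3 to 68.4), 26.1-fold higher (21.2 to 32.5). Cells ran over 111.3 to 3181 CPM in WT Cells 2 (median 1691) and over 0 to 983 CPM in WT Cells 1 (median 39.4), and 22 of the 29 cells lay above the highest cell of WT Cells 1. All 29 cells of WT Cells 2 held a UMI also after thinning, against 32.5% of the cells of WT Cells 1. Of 10 measured genes of acid, base and anion transport, 2 were at least 2-fold higher (Car12 and the cytosolic Car13, a ratio of 2.52) and 3 lower (Car14 and the bicarbonate transporters Slc4a4 and Slc4a7). By the same rule 7.05% of all genes were higher and 7.96% lower. Car14, another membrane-bound carbonic anhydrase whose exons overlap Aph1a, was at 32.1 CPM in WT Cells 2 and 255 CPM in WT Cells 1.

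Pax2, a paired-box transcription factor of the developing ear, ranked first among the genes that met the naming rule once 1 CPM was added, with a log2 ratio of 5.55. With 10 CPM added Fst (4.59) and Car12 (4.48) lay above it (4.14). It was at 238 CPM in WT Cells 2 (206 to 275) and 4.12 CPM in WT Cells 1 (1.66 to 8.50), 57.8-fold higher (27.5 to 145.7). A UMI was found in 15 of 29 cells of WT Cells 2 and in 7 of 80 of WT Cells 1, and 13 cells of WT Cells 2 lay above the highest cell of WT Cells 1. Of 28 measured transcription factors of the otic epithelium, 7 were at least 2-fold higher in both letters (Gata2, Gata3, Pax2, Tbx3, Lmx1a, Isl1 and Rorb) and 3 lower, among them Nr2f1 and Eya1, against 7.05% higher and 7.96% lower of all genes. Lmx1a, a LIM homeodomain factor of non-sensory otic epithelium, was at 290.4 CPM in WT Cells 2 and 43.02 CPM in WT Cells 1, and Gata3 at 830.4 CPM in WT Cells 2 and 341 CPM in WT Cells 1. Nr2f1, an orphan nuclear receptor, was at 97.6 CPM in WT Cells 2 (77.3 to 121.7) and 990 CPM in WT Cells 1 (943 to 1038), 10.1-fold lower (8.09 to 12.9), and 80 of 80 cells of WT Cells 1 held a UMI, against 21 of 29 of WT Cells 2. The co-activator Eya1 was 3.30-fold lower, at 153.2 CPM in WT Cells 2 and 506 CPM in WT Cells 1. Sox9 and Sox10, which most of the cochlear epithelium expresses, were within 2-fold, with 691 and 1126 CPM in WT Cells 2 and 992 and 1728 CPM in WT Cells 1.

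The growth factor genes of the FGF, BMP and TGF-beta pathways differed in both directions: of 30 measured members, 9 were at least 2-fold higher in WT Cells 2 in both letters and 3 lower, against 7.05% and 7.96% of all genes. Among the ligands, Fgf9 was at 1031 CPM in WT Cells 2 (962 to 1103) and 80.7 CPM in WT Cells 1 (67.8 to 95.4), a ratio of 12.8 (10.6 to 15.4). It was present in 26 of 29 cells of WT Cells 2 (median 695 CPM, highest 2176) and in 48 of 80 of WT Cells 1 (median 37.2, highest 1181). The receptors went in opposite directions. Fgfr2 was at 389 CPM in WT Cells 2 (347 to 435) and 11.8 CPM in WT Cells 1 (7.20 to 18.2), with 23 cells of WT Cells 2 above the highest cell of WT Cells 1, while Fgfr1 was at 199 CPM in WT Cells 2 (169.4 to 232) and 700 CPM in WT Cells 1 (661 to 741). In the annotation an exon of Fgfr2 overlaps an exon of Ctbp2, and whether counting used strand is not given in the sources used here, so their reads may not be told apart. Spry1, a feedback inhibitor of receptor tyrosine kinase signalling, was 12.6-fold lower (4.79 to 47.2), at 4.94 CPM in WT Cells 2 and 62.5 CPM in WT Cells 1.

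On the BMP and TGF-beta side, the ligand Bmp4, its inhibitor Fst, the target gene Id3, the receptor gene Tgfbr2, the ligands Tgfb1 and Tgfb3 and the latency protein gene Ltbp1 were higher in WT Cells 2. Id3 was at 269 CPM in WT Cells 2 and 65.996 CPM in WT Cells 1, a ratio of 4.08 (3.24 to 5.17). Ltbp1 was at 64.3 CPM from 12 cells of WT Cells 2 and had 1 UMI in WT Cells 1. Its relative Ltbp2 was the reverse, at 28.4 CPM in WT Cells 2 (18.02 to 42.6) and 536 CPM in WT Cells 1 (502 to 572), 18.9-fold lower (12.5 to 29.9), and 64 cells of WT Cells 1 lay above the highest cell of WT Cells 2. The ligand Bmp6 was at 211 CPM in WT Cells 2 and 447 CPM in WT Cells 1, with log2 ratios of -0.86 in letter A and -1.48 in letter B.

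In the Wnt pathway 2 of 15 measured genes were at least 2-fold higher in both letters (Lgr5 and Frzb) and 1 lower (the ligand Wnt7a), and in the Notch pathway 2 of 10 were higher (the target genes Hey2 and Heyl) and 1 lower (Hey1). With 7.05% of all genes higher and 7.96% lower, counts this small say little of either pathway. Notch1 itself was at 413 CPM in WT Cells 2 and 239 CPM in WT Cells 1, a ratio of 1.73 (1.488 to 1.999). Among the Notch targets, Hey2 was at 48.2 CPM in WT Cells 2 and 3.54 CPM in WT Cells 1, and Hes5 had 0 UMIs in both.

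By difference in level, the 8 leading genes of WT Cells 2 among those that met the naming rule were Epyc, Ptp4a2, Scd1, Car12, Ly6e, Syne2, Fgf9 and Lgr5. Ptp4a2, a protein tyrosine phosphatase of the PRL family, was at 2197 CPM in WT Cells 2 (2096 to 2302) and 462 CPM in WT Cells 1 (430 to 495), and 19 of 29 cells lay above the highest cell of WT Cells 1. Ly6e, a surface protein anchored by a lipid, stood at 1589 CPM in WT Cells 2 and 206 CPM in WT Cells 1, which is 7.73-fold (6.86 to 8.72). Scd1, which desaturates fatty acids, was at 2118 CPM in WT Cells 2 and 459 CPM in WT Cells 1, but it was higher still in WT Supp Cells, at 4292 CPM, the exception among the 21 genes named as higher by ratio or difference. Of 12 measured retinoid and lipid genes, 5 were at least 2-fold higher, among them Scd1 and Crabp2, and 1 lower (Lpl). Over all genes the shares were 7.05% higher and 7.96% lower. Crabp2, which carries retinoic acid in the cell, stood at 113.7 CPM in WT Cells 2 and at 5.30 CPM in WT Cells 1.

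**Figure D4:**
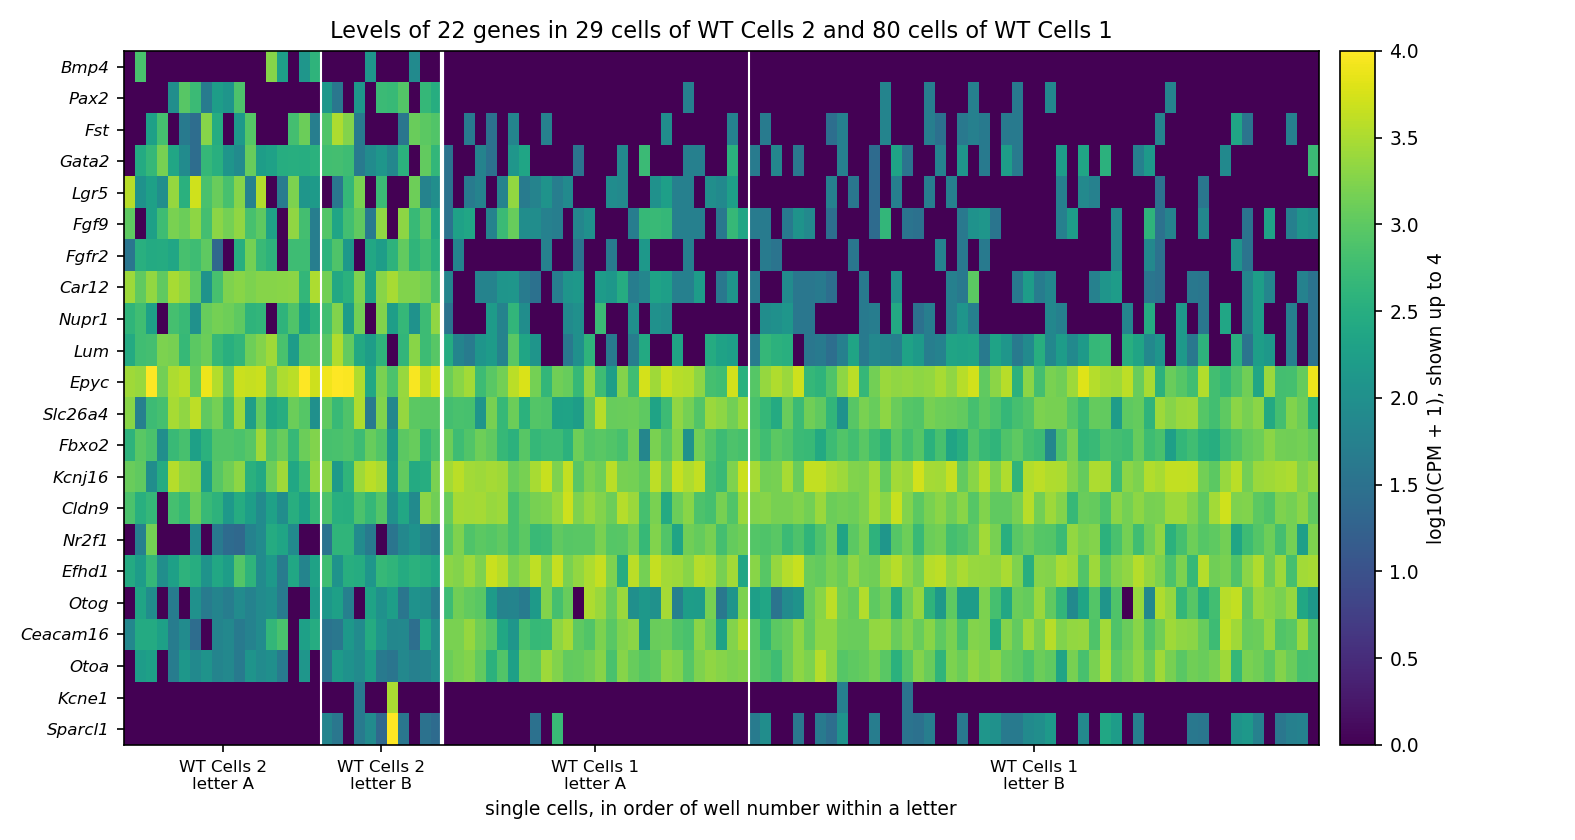
Level of 22 genes (rows) in each of the 29 cells of WT Cells 2 (left) and the 80 cells of WT Cells 1 (right), split by letter, as log10(CPM + 1) up to 4. Otoa, Ceacam16, Efhd1 and Nr2f1 are high across WT Cells 1, Car12 is high across WT Cells 2, and Epyc is high in most cells of both groups. Kcne1 and Sparcl1 are high in 1 cell of letter B of WT Cells 2.

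The genes lower in WT Cells 2 included many that were seen in nearly every cell of WT Cells 1. By difference in level, the 8 leading ones among those that met the naming rule were Efhd1, Nr1d1, Elovl1, Ceacam16, Otoa, Cldn9, Fam213a and Sept11. All 8 were lower than in WT Cells 1 by the rule. They were also lower than in WT Cells 3 and WT Supp Cells, with no share over all genes given beside this count. Efhd1, a calcium-binding protein of mitochondria, was at 304 CPM in WT Cells 2 (267 to 344) and 2333 CPM in WT Cells 1 (2261 to 2407), 7.67-fold lower (6.75 to 8.76). Its cells ran over 44.5 to 864 CPM in WT Cells 2 (median 253) and over 229 to 4744 CPM in WT Cells 1 (median 2179), with 72 cells of WT Cells 1 above the highest of WT Cells 2. The fatty acid elongase Elovl1 was 6.46-fold lower (5.595 to 7.497), at 247 CPM in WT Cells 2 and 1597 CPM in WT Cells 1. The tight junction gene Cldn9 was 3.32-fold lower (3.00 to 3.68), at 542 CPM in WT Cells 2 and 1800 CPM in WT Cells 1, and with Cldn12 and Marveld2 it made up the 3 of 16 measured tight junction genes that were lower, with 0 higher, against 7.96% lower and 7.05% higher of all genes.

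By ratio after 1 CPM was added, the 15 genes lowest in WT Cells 2 were Myl9, Ptprm, Tg, Nrp2, Hepacam, Slc35e3, Lppos, Klhl32, Lpl, Ifit2, Pld5, Tril, Lrig3, Ltbp2 and Rapgef3, among 460 that met the rule. Lppos lies over exons of Lpp, and their reads may not be told apart. Myl9, a regulatory light chain of non-sarcomeric myosin, was at 8.65 CPM in WT Cells 2 (3.48 to 17.8) and 343 CPM in WT Cells 1 (316 to 372), 39.6-fold lower (19.1 to 99.05), with a UMI in 7 of 29 and 60 of 80 cells. Nrp2, a co-receptor for semaphorins and vascular growth factors, was at 6.18 CPM in WT Cells 2 and 196 CPM in WT Cells 1, 31.7-fold lower (13.4 to 98.2). Hepacam, Slc35e3, Lppos, Klhl32 and Pld5 had 0 UMIs in WT Cells 2 and 21.2 to 24.2 CPM in WT Cells 1, so they were at least 5.72- to 6.52-fold lower at the limit of 3 counts. Their rank rests on the 1 CPM added: with 10 CPM added their log2 ratios were -1.77 to -1.64, against -3.99 for Otoa and -3.54 for Otog. Lpl and Rapgef3 were the 2 of the 15 that were not lowest in WT Cells 2 among the 4 control clusters.

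A list of 12 genes taken from earlier results on control cells as resident epithelial genes was low in WT Cells 2: 10 were at least 2-fold lower in both letters and 0 higher. Of all genes 7.96% were lower and 7.05% higher. The list of 12 was chosen on these samples and is no independent evidence. Its members summed to 463 CPM in WT Cells 2 (418 to 513) and 3663 CPM in WT Cells 1 (3573 to 3756), and per cell to 22.3 to 1446 CPM in WT Cells 2 (median 431) and 373 to 8195 CPM in WT Cells 1 (median 3581). Besides Ceacam16, Ltbp2 and Lpl it holds Ppp1r1b, an inhibitor of protein phosphatase 1, at 170.5 CPM in WT Cells 2 and 697 CPM in WT Cells 1.

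The other control clusters can be set beside these values. For Fst, Otoa and Mylk, WT Cells 1 and WT Cells 3 were closer to each other than to WT Cells 2. Fst was at 559 CPM in WT Cells 2, 13.6 CPM in WT Cells 1, 20.8 CPM in WT Cells 3 and 15.3 CPM in WT Supp Cells. Otoa was at 75.4, 1346, 929 and 257 CPM in the same order, and the myosin kinase gene Mylk at 61.8, 870, 806 and 74.1 CPM. Of the 21 genes named as higher, 20 were highest in WT Cells 2 among the 4 clusters, and of the 23 named as lower, 21 were lowest. These genes were chosen by their difference from WT Cells 1, so only their places against WT Cells 3 and WT Supp Cells were open. No share over all genes is given beside these counts, so they describe the named genes only. For Otog the order was another: WT Supp Cells had 1901 CPM, above WT Cells 1.

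**Figure D5:**
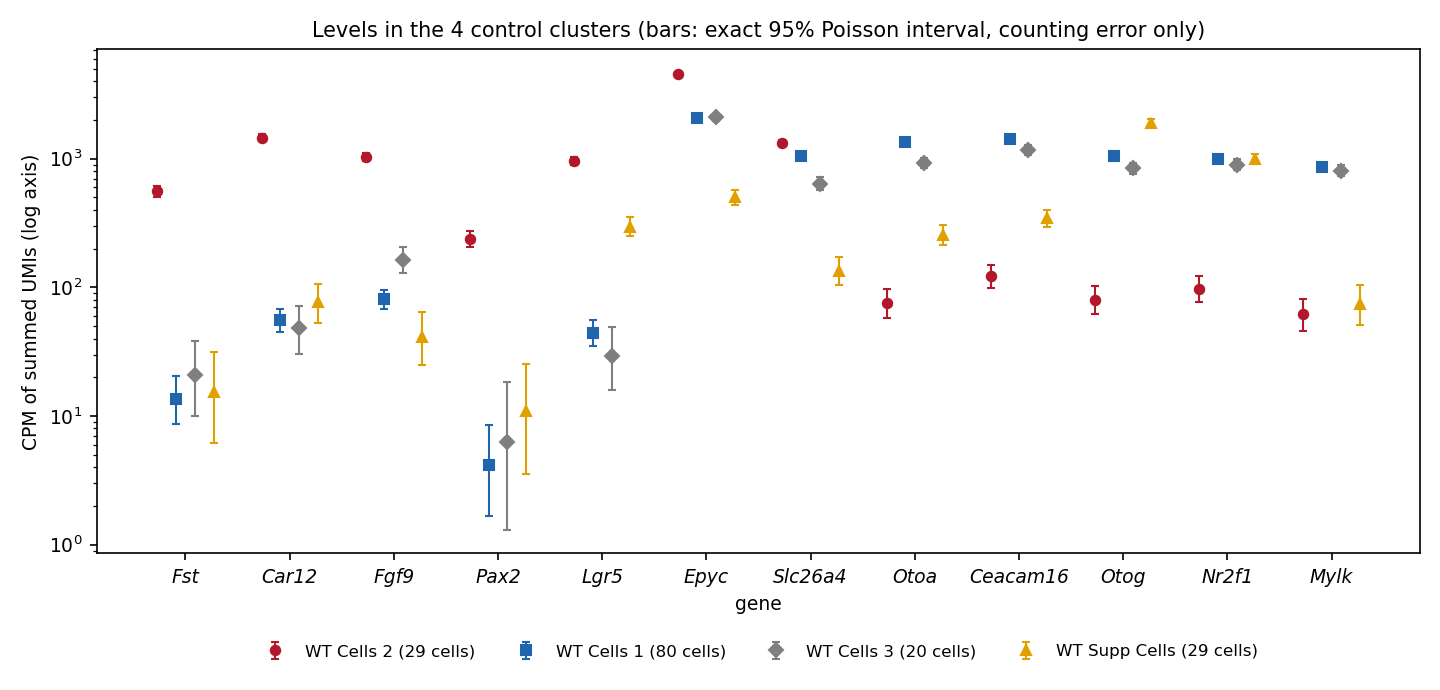
Level of 12 genes in WT Cells 2, WT Cells 1, WT Cells 3 and WT Supp Cells on a log axis, in CPM of summed UMIs with exact 95% Poisson intervals. WT Cells 2 is highest for Fst (559 CPM), Car12, Fgf9, Pax2, Lgr5, Epyc and Slc26a4 and lowest for Otoa (75.4 CPM), Ceacam16, Otog, Nr2f1 and Mylk.

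The 29 cells of WT Cells 2 were not alike in their outer epithelial markers. At 500 CPM or more, 8 cells were high in Fst and not Lgr5, 9 in Lgr5 and not Fst, 3 in both and 9 in neither. In WT Cells 1 no cell reached 500 CPM of Fst and 1 of 80 did so for Lgr5. Both kinds were present in each letter: 3 Fst-high and 7 Lgr5-high cells in letter A, and 5 and 2 in letter B. At a single UMI, 28 of the 29 cells held Fst, Lgr5 or Bmp4, against 43 of the 80 cells of WT Cells 1. Pax2 was seen in 15 cells and Bmp4 in 7, and no cell held both, where the small numbers and the depth of single cells limit what an absence means.

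A cell of letter B, in well 62, stood apart from the other 28 of WT Cells 2 by genes of the marginal cells of the stria vascularis. It held 88 of the 89 UMIs of Kcne1, a potassium channel subunit of those cells, 349 of the 359 of Sparcl1, 498 of the 648 of Atp1b2, a sodium pump subunit, and 41.7% of the 345 of the cotransporter gene Slc12a2. It held 0 UMIs of Fst, Lgr5 and Bmp4. The stria marginal list reached 28382 CPM in the highest cell of WT Cells 2 (median 808) and 1125 CPM in the highest of WT Cells 1 (median 365). With the cell, 3 of 7 measured members were at least 2-fold higher in both letters (Kcnq1, Slc12a2 and Lmx1a), against 7.05% of all genes. Sparcl1 was also found at low counts beyond this cell, and by letter: in 0 of 18 cells of letter A and 8 of the other 10 cells of letter B in WT Cells 2, and in 2 of 28 and 30 of 52 cells in WT Cells 1. Without the cell Atp1b2 was at 192 CPM in WT Cells 2, against 230 CPM in WT Cells 1, Kcne1 at 1.28 against 1.18 CPM, and the ratio of Slc12a2 was 2.497 in place of 4.13. The counts of genes past 2-fold without this cell were 683 higher and 783 lower.

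The hair cell list had 6 of 20 members at 10 CPM or more, with 0 higher and 1 lower (Pcp4), and the spindle cell and the Schwann and satellite glia lists had 0 either way. The gap junction genes Gjb2 and Gjb6 were within 2-fold, at 974 and 473 CPM in WT Cells 2 and 1216 and 300 CPM in WT Cells 1. Of 20 measured basement membrane and matrix genes 6 were at least 2-fold higher (Col4a2, Lamb1, Nid1, Epyc, Lum and Spon1) and 4 lower (Col4a3, Col4a4, Lamb3 and Ltbp2). Over all genes 7.05% were higher and 7.96% lower, which applies to each list count of this paragraph. Vim, the intermediate filament vimentin, was at 487 CPM in WT Cells 2 and 23.6 CPM in WT Cells 1, but 41.6% of its UMIs in WT Cells 2 came from 1 cell. Of 7 measured genes of sodium absorption and water channels 3 were higher and 0 lower, with the kinase gene Sgk1, which acts on the epithelial sodium channel, at 712 CPM in WT Cells 2 and 230 CPM in WT Cells 1.

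Among signs of cell state, the stress genes were near the shares over all genes, 7.05% higher and 7.96% lower. Of 16 immediate early and dissociation stress genes, 1 was at least 2-fold higher in both letters (Hspa1b, at 1104 CPM in WT Cells 2 and 486 CPM in WT Cells 1) and 1 lower (Dusp1, at 382 CPM in WT Cells 2 and 794 CPM in WT Cells 1). The list ran over 626 to 45601 CPM per cell in WT Cells 2 (median 2005) and over 704 to 41809 CPM in WT Cells 1 (median 2476), so cells of high sums were found in both groups. The mitochondrially encoded genes summed to 18809 CPM in WT Cells 2 and 13319 CPM in WT Cells 1. Of 7 measured, 1 was higher past 2-fold in both letters (mt-Nd2) and 0 lower, and their median log2 ratio was 0.73. Of 4 measured cell cycle genes, 2 were higher by the same rule (Cdkn1a and Cdkn1c) and 0 lower. The part of these values, and of the larger UMI totals of the cells of WT Cells 2, in the differences above was not tested.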

How the data were processed

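The values are raw exon counts of UMIs per gene and cell as deposited by the authors, 1 cell per sample. Reads were aligned with STAR and counted with HTSeq on mm10, per the submitters' processing notes, with no version stated there. Cell groups are the authors' deposited cluster numbers, used as given, and no doublet caller was run. The number of UMIs per cell sets the precision, and intervals cover counting error only.

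Counts were summed over the cells of a group and scaled to CPM with Python 3.11.15, pandas 2.3.3, numpy 2.4.6 and scipy 1.17.1, and figures were drawn with matplotlib 3.10.9. Ratios are log2 after 1 CPM was added, for genes at 10 CPM or more in either group. A gene counts as higher or lower when it passes 2-fold in letter A and in letter B. No test was made, since each group is 1 sample and the clusters come from the same genes.

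Genes were named as the 15 highest and 15 lowest by ratio and the 8 largest by difference in each direction. For both rankings a gene needed 20 CPM in the higher group and a UMI in at least 5 of its cells in each letter. It also needed at most 1/3 of its UMIs in 1 cell, and 2-fold in both letters. Genes named Gm or LOC followed by digits, or with names ending in Rik, were left out of both. Members of the lists were also named. The members and lists were chosen with earlier results of these data known.

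Other settings tried were averaging CPM over cells, TMM factors (edgeR 4.0.16, R 4.3.3), only cells with 10000 UMIs or more, thinning to 8000 UMIs, dropping a letter, adding 10 CPM in place of 1, filtering at 50 CPM or not at all, no condition on letters, and leaving out 1 cell (chosen after seeing the data). Several exons overlap those of another gene, among them Fst, Bmp4, Epyc, Ceacam16, Efhd1, Elovl1 (Cdc20) and Nr1d1 (Thra), and no source used here states whether counting used strand. The script was tested on simulated data. Results on some genes of the lists are not reported here.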

Additional observations from a re-analysis of the deposited data

Results flagged for a closer look

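The GAP mice carried a Rosa26-GAP allele with Atoh1, Gfi1 and Pou4f3, besides Fbxo2CreERT2 and Rosa26-tdTomato. In their cells of the same 2 clusters these 3 hair cell transcription factor genes had UMIs, at levels above those of the control cells. Of cluster 3, WT Cells 2, the 5 GAP cells had 137.99 CPM of Atoh1, 30.7 CPM of Gfi1 and 53.7 CPM of Pou4f3 (18, 4 and 7 UMIs), against 0 UMIs of each in the 29 control cells. The 4 GAP cells in WT Cells 1 had 67.04 CPM of Atoh1, 16.8 CPM of Gfi1 and 33.5 CPM of Pou4f3 (8, 2 and 4 UMIs), against 0 UMIs, 1 UMI (0.589 CPM) and 0 UMIs in the 80 control cells. These GAP cells entered no comparison.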

How the results depend on the processing

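The 676 genes at least 2-fold higher and 763 lower in WT Cells 2 became 1892 and 1891 without letter A and 1876 and 1877 without letter B, where only 1 letter has to pass. They became 1331 and 1300 with no condition on letters, 369 and 402 with a pseudocount of 10 CPM, and 297 and 312 with a filter of 50 CPM, which leaves 4921 genes. Under the other alternatives the counts ran over 637 to 891 higher and 759 to 1132 lower. Without letter A 619 of the 676 and 702 of the 763 were among the genes counted, and without letter B 623 and 709. These genes had passed 2-fold in each letter, so they could be lost only by falling under 10 CPM in the letter kept. The overlap is therefore no support.

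The Hensen list's median log2 ratio of 3.97 was 3.36 after thinning, 5.01 without letter A and 4.62 with a filter of 50 CPM. The Claudius and outer sulcus list's 3.55 was 4.16 without letter A, 2.81 without letter B, 2.25 with a pseudocount of 10 CPM and 2.72 with no filter. The interdental list's -3.52 was -3.20 without letter B. The Deiters list's 1.17 turned to -0.084 with a filter of 50 CPM, which keeps 3 members, and was 0.12 without the cell of well 62; apart from the number of members the cause was not tested. The 65 genes run under 8 alternatives kept their direction and stayed past 2-fold. These genes had been named on the same counts for passing 2-fold in each letter, so this is no support. Where a letter was dropped the outcome was fixed in advance. The log2 ratio changed by more than a tolerance set for each gene in 15 of the 65 after thinning and in 10 with 10 CPM added. It did so in 12 without letter A, in 16 without letter B, and in 3 or fewer under the remaining alternatives. Not every gene named above was run, and Slc26a4, Kcnj16 and Fbxo2, which lay within 2-fold, were not. No paired analysis was possible because single cells of the groups have no partner in the labels, which name no animals; the groups were compared within each letter instead. Genes at 0 UMIs in both groups are not bounded by depth, since 6 of 13 mitochondrially encoded genes were at 0 too.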

Other observations

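Lists of clock genes and of contractile genes were drawn up after the values were seen, so their counts support nothing. Of 16 measured circadian clock genes, 6 were at least 2-fold lower in both letters (Nr1d1, Rora, Tef, Cry2, Bhlhe41 and Per2) and 1 higher (Nfil3). Over all genes 7.96% were lower and 7.05% higher. Nr1d1, a repressor of the clock whose exons overlap Thra, was at 336 CPM in WT Cells 2 and 1849 CPM in WT Cells 1, 5.50-fold lower (4.86 to 6.25). The list summed to 828 to 2727 CPM per cell in WT Cells 2 (median 1685) and to 1545 to 10440 CPM in WT Cells 1 (median 4475), and 68 cells of WT Cells 1 lay above the highest cell of WT Cells 2. The core activators Arntl and Clock were within 2-fold, at 109.98 and 171.8 CPM in WT Cells 2 and 85.4 and 127.3 CPM in WT Cells 1.

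Of 13 measured genes of the contractile actin apparatus, 7 were lower in both letters, among them Myl9, Mylk, Actn1 and Myh10, and 0 higher. Over all genes 7.96% were lower and 7.05% higher. Mylk, the kinase of myosin light chains, was at 61.8 CPM in WT Cells 2 and 870 CPM in WT Cells 1, 14.1-fold lower (10.6 to 19.1). The actin cross-linker Actn1 stood at 128.5 CPM in WT Cells 2 and 1181 CPM in WT Cells 1, a difference of 9.19-fold (7.55 to 11.3). In 77 of the 80 cells of WT Cells 1 the list's sum was above the highest cell of WT Cells 2.

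Among all control cells other than that of well 62, Sparcl1 had a UMI in 6 of 91 cells of letter A and 53 of 88 of letter B. The cells with a UMI had a median of 2.5 UMIs in letter A and 1 in letter B. Kcne1 had a UMI in 0 of 91 and 9 of 88 cells. In the GAP cells Sparcl1 had a UMI in 78 of 92 cells of letter C and 66 of 88 of letter D, and Kcne1 in 0 of 92 and 0 of 88. The cause was not tested.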
